A study of Mus musculus with 45 samples.

Results

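The 10 genes described here belong to cytokine signalling and were measured in the colonic epithelium of control, obese and formerly obese mice. They were 4 SH2-containing inhibitors (Cish, Socs1, Socs2 and Socs3), 3 transcription factors (Stat3, Stat5a and Stat5b) and 3 receptor subunits (Il6ra, Il10rb and Il22ra1). The genes were found by symbol in a table of 24918 gene entries, each symbol had its counts in every library, and all 10 passed the filter on low counts that left 12961 entries for testing. The genes were chosen by their place in the pathway with the RNA-seq results of these same 15 libraries known, the difference of Cish in formerly obese mice among them, so their differences between diets are a description and carry no p-value.

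The series held 45 samples, 15 each for RNA sequencing (RNA-seq), bisulfite sequencing of PCR amplicons and whole-genome bisulfite sequencing (WGBS), from 5 mice per group and assay. All mice were male C57BL/6 animals (C57BL/6J in the methods of the study) that started their diet at 6 weeks of age, received lard as the source of fat and were 26 weeks old at the end. Control mice (LF) received the diet with 10% fat for 20 weeks, and obese mice (HF) the diet with 60% fat for the same time. Formerly obese mice (HFLF) spent 15 weeks on the high-fat diet before 5 weeks on the low-fat diet, so they shared the final diet of the control mice and differed from them in past diet, and they differed from the obese mice in the diet of the last 5 weeks. The comparisons asked how these genes differed with the high-fat diet and how they stood after the return to the low-fat diet.

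When a cytokine binds its receptor on the cell surface, Janus kinases attached to the receptor phosphorylate the receptor and then STAT proteins, which enter the nucleus and switch on target genes. Among those targets are the genes of the CIS and SOCS proteins, which bind phosphorylated receptors or kinases and damp the signal, so their mRNA is often read as a trace of recent STAT activity. In the gut lining, IL-22 and IL-6 family cytokines act through STAT3 on antimicrobial defence and repair, while STAT5 is known for induction of Cish.

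Library totals ran from 15230391 to 22762095 gene counts, and formerly obese replicate 3 had the largest total. Levels are given as CPM, counts relative to the library total after TMM scaling, which corrects for composition. Summed levels of 9 epithelial markers ran from 14540 to 17410 CPM, so the markers of the labelled tissue were present, and 2 of 4 adipocyte markers were at 0 in every library. Summed levels of 5 colonocyte markers were 5747 to 11480 CPM in control, 6373 to 10640 CPM in obese and 8754 to 13860 CPM in formerly obese mice. Summed levels of 15 immune cell markers were 25.2 to 46.5, 34.5 to 67.9 and 29.2 to 58.5 CPM in the same order. In these bulk samples, fewer cells of a type and less RNA per cell cannot be told apart.

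Per kilobase of exon, the receptor subunit gene Il10rb had the highest level of the 10 genes and Socs1 the lowest. In control mice, Il10rb reached 62.4 ± 3.10 CPM per kilobase (SD, n = 5), Stat3 36.9 ± 1.97 and Il22ra1 17.0 ± 1.54. Socs2 (11.2 to 13.6) and Cish (10.8 to 12.8) came next, with ranges that overlapped. Stat5a (4.75 ± 0.21) and Stat5b (4.63 ± 0.32) also overlapped, followed by Socs3 at 2.69 ± 0.70. Il6ra (1.41 ± 0.33) and Socs1 (1.11 ± 0.15) had the lowest levels, and their ranges overlapped too. All other neighbours in this order were separated in control mice. Il10rb, which is shared by the receptors of IL-10, IL-22 and the lambda interferons, and Il22ra1, the subunit that gives epithelial cells their response to IL-22, were thus well expressed, whereas Il6ra, the subunit that binds IL-6, was near the bottom of the order.

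**Figure D1:**
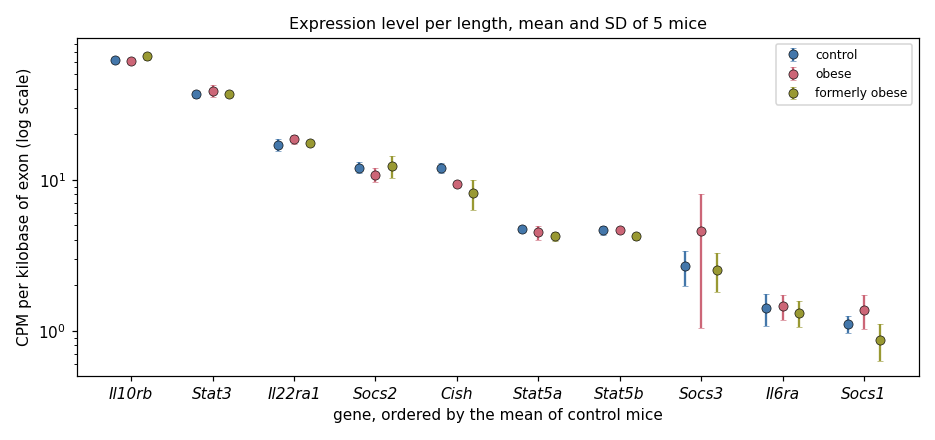
Mean level of each gene in CPM per kilobase of exon on a log axis, with the SD of 5 mice, for control, obese and formerly obese mice. Genes run from Il10rb (62.4 in control mice) to Socs1 (1.11), and the longest bar is that of Socs3 in obese mice (4.57 ± 3.53).

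Among the receptor subunits, none of the 3 passed the cutoffs for a call in any comparison, and their groups overlapped throughout. A call required a fold change above 1.2 up or down, p below 0.01 and a Benjamini-Hochberg adjusted p below 0.25 in one edgeR quasi-likelihood fit over all 15 libraries, the cutoffs that the study used. Of all tested entries, 1.58% were called in obese against control mice, 3.72% in formerly obese against control mice and 2.65% in formerly obese against obese mice.

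Il22ra1 measured 101, 114, 94.1, 93.0 and 93.3 CPM in the 5 control mice. It measured 104, 102, 104, 114 and 118 CPM in obese mice and 107, 103, 98.8, 102 and 99.0 CPM in formerly obese mice. All control mice except replicate 2 lay below every obese mouse, and replicate 2 lay inside the obese range. The log2 fold change was 0.13 ± 0.06 (SE, 95% interval 0.00 to 0.25) in obese against control mice and 0.04 ± 0.06 (-0.08 to 0.17) in formerly obese against control mice.

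Il10rb measured 107 to 123 CPM in control mice (median 115), 105 to 119 CPM in obese mice (median 115) and 118 to 132 CPM in formerly obese mice (median 119). Its log2 fold changes were -0.02 ± 0.05 in obese and 0.08 ± 0.05 in formerly obese mice against control mice. Formerly obese replicate 1 (132 CPM) stood above the other 4 mice of its group, which lay between 118.1 and 121.7 CPM.

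Il6ra rested on 52 to 103 counts per library, so that counting error alone was 9.85% to 13.9% of a value. Its range was 3.20 to 5.83 CPM in control, 3.90 to 6.05 CPM in obese and 3.43 to 5.65 CPM in formerly obese mice. The log2 fold changes were 0.03 ± 0.18 and -0.11 ± 0.18 against control mice, and their 95% intervals (-0.34 to 0.41 and -0.49 to 0.27) left room for differences of either sign.

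None of the 3 STAT genes was called in any comparison. Stat3, the factor that IL-6, IL-10 and IL-22 activate, measured 168, 176, 166, 168 and 152 CPM in control mice. It measured 199.5, 169, 164, 164 and 177 CPM in obese mice and 172, 159, 165, 165 and 171 CPM in formerly obese mice. Only obese replicate 1 and obese replicate 5 exceeded the highest control value. The log2 fold change was 0.08 ± 0.05 (-0.04 to 0.19) in obese and 0.01 ± 0.05 (-0.11 to 0.12) in formerly obese mice, both against control mice.

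Stat5a and Stat5b are paralogs that act downstream of growth hormone, prolactin and several interleukins and are known to drive Cish. Stat5a measured 19.0, 19.6, 18.7, 17.5 and 19.5 CPM in control mice, 20.95, 18.3, 16.3, 16.2 and 17.1 CPM in obese mice and 16.4, 16.4, 16.9, 18.4 and 15.5 CPM in formerly obese mice. All formerly obese mice except replicate 4 were below every control mouse. The log2 fold change of formerly obese against control mice was -0.17 ± 0.08 (-0.33 to -0.01), with a fold of 0.888.

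Stat5b measured 34.0 to 40.6 CPM in control, 35.7 to 39.6 CPM in obese and 31.7 to 36.1 CPM in formerly obese mice. Its log2 fold change was -0.13 ± 0.06 (-0.25 to -0.01) in formerly obese against control mice and -0.14 ± 0.06 (-0.26 to -0.03) in formerly obese against obese mice. Reads of the pair cannot always be told apart, since 608 of the 4149 windows of 50 bases in Stat5a transcripts (14.7%) also occurred in Stat5b transcripts. Stat3 shared 0 windows with either of them. How the counting treated such reads was not examined.

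Cish, which encodes CIS, the SOCS family member induced by STAT5, had the clearest separation of the 10 genes. The 5 control mice had 27.6, 26.3, 24.9, 23.4 and 27.5 CPM. The obese mice had 21.1, 20.5, 20.35, 19.2 and 19.5 CPM, and the formerly obese mice had 19.4, 20.4, 10.7, 19.8 and 17.98 CPM. Each obese and each formerly obese mouse was below each control mouse, while obese and formerly obese mice overlapped. The values rested on 241 to 443 counts per library, a counting error of 4.75% to 6.44%.

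In formerly obese against control mice the log2 fold change of Cish was -0.56 ± 0.12 (-0.82 to -0.30), a level of 0.678 of that in control mice, and the gene passed the cutoffs, as did 1.87% of all tested entries in the lower direction. In obese against control mice it was -0.37 ± 0.12 (-0.63 to -0.11), a level of 0.776 of that in control mice, and Cish did not pass. Formerly obese and obese mice differed by -0.19 ± 0.13 (-0.46 to 0.07). Both comparisons with control mice used the same 5 control libraries.

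Formerly obese replicate 3 (10.7 CPM) lay far below the other 4 mice of its group. That library also had the largest total, the highest sum of colonocyte markers (13860 CPM) and the highest sum of fibroblast markers (30.7 CPM, against at most 17.4 CPM in the control and obese mice), and their part in the low value was not tested. Without it, the log2 fold change of Cish in formerly obese against control mice was -0.42 (a fold of 0.748) and the gene was still called. In obese against control mice the call appeared when this library or control replicate 4 was left out, with log2 fold changes of -0.36 and -0.40. With every mouse of the compared groups kept, it also appeared with DESeq2, with the compared groups alone and with GC trends removed. In all, 5 of 23 alternative analyses called Cish in this comparison.

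The start of Cish holds sequence of the kind that STAT dimers bind, and it is shown here because the gene is a known STAT5 target. The motif searched was TTCNNNGAA, a palindrome that reads alike on both strands and in which the narrower form TTCCNGGAA is contained. RefSeq promoters of the mouse assembly GRCm38.p6 (mm10), each with 250 bases before and 50 after the gene start, covered 8 of the 10 genes, all but Socs2 and Il10rb. Among them the promoters of Cish and Socs3 held the motif, and the capitals mark it.
Cish, chr9:107296654-107296683, plus strand: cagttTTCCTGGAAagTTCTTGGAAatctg
Socs3, chr11:117969502-117969531, minus strand: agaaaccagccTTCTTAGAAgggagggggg

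The 2 Cish matches began at bases 1 and 12 of the RefSeq transcript, the first of them also in the narrower form, and lay before the start that the count table gives to the gene (position 107296689). The Socs3 match began at base -154 relative to the gene start. Of 32851 promoters of the same length in the table, 2726 (8.3%) held TTCNNNGAA and 377 (1.15%) held TTCCNGGAA. Counted per gene, the shares were 9.55% and 1.35% of 27025 genes. A match is a string of letters and says nothing about whether a factor was bound there.

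**Figure D2:**
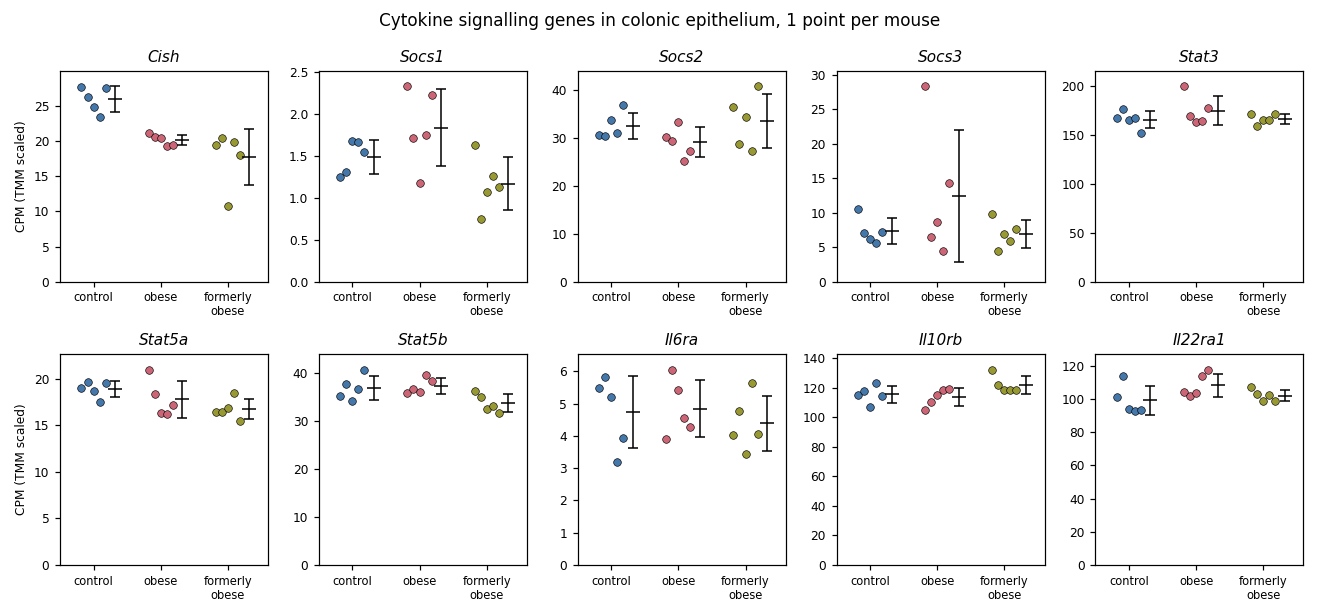
Level of each of the 10 genes in CPM (y axis, from 0) in control, obese and formerly obese mice, with 1 point per mouse and the mean and SD of 5 mice beside the points. For Cish all obese (19.2 to 21.1) and formerly obese (10.7 to 20.4) mice lie below the control mice (23.4 to 27.6), and for Socs3 the obese mice spread from 4.49 to 28.3.

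Socs3, the feedback inhibitor that STAT3 induces and that acts on the receptor chain shared by IL-6 family cytokines, varied most between mice. Its level was 10.53, 7.14, 6.14, 5.66 and 7.14 CPM in control mice. In obese mice it was 28.3, 6.42, 8.67, 4.49 and 14.35 CPM, and in formerly obese mice 9.79, 4.45, 6.85, 5.92 and 7.58 CPM. Obese replicates 1 and 5 exceeded every control and formerly obese mouse, and the other 3 obese mice lay within or just below the control range. The coefficient of variation was 77.2% in obese mice against 26.0% in control and 28.7% in formerly obese mice.

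The log2 fold change of Socs3 was 0.76 ± 0.37 (-0.02 to 1.55) in obese against control mice and -0.84 ± 0.37 (-1.63 to -0.06) in formerly obese against obese mice, and neither was called. It was -0.08 ± 0.38 (-0.89 to 0.73) in formerly obese against control mice. Without obese replicate 1 the first 2 values became 0.21 and -0.29, and without obese replicate 4 the difference between formerly obese and obese mice was -1.06 and passed the cutoffs. Obese replicate 1 was also the library with the highest levels of Stat3 and Stat5a, and its summed immune markers were 34.5 CPM, the lowest among the obese mice. In obese replicate 5 that sum was 67.9 CPM, the highest of all 15 mice, and the part of immune cells in the Socs3 values was not tested.

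Socs1, an inhibitor that acts on Janus kinases directly and is best known for restraining interferon signals, had only 12 to 37 counts per library, and counting error alone was 16.4% to 28.9% of a value. It measured 1.25, 1.31, 1.67, 1.66 and 1.54 CPM in control mice. It measured 2.33, 1.71, 1.18, 1.747 and 2.22 CPM in obese mice and 1.63, 0.75, 1.07, 1.26 and 1.13 CPM in formerly obese mice. All obese mice except replicate 3 were above every control mouse, and replicate 3 was below all of them.

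Formerly obese against obese mice gave a log2 fold change of -0.65 ± 0.22 (-1.11 to -0.18) for Socs1, a fold of 0.639, with overlapping groups. The gene passed the cutoffs, as did 1.42% of all tested entries in the lower direction, but it passed in only 4 of the 23 alternative analyses. Against control mice the log2 fold change was 0.30 ± 0.22 in obese and -0.35 ± 0.23 in formerly obese mice, and neither was called.

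Socs2, which is best known for restraining growth hormone signals, measured 30.6, 30.3, 33.7, 31.0 and 36.7 CPM in control mice. It measured 30.2, 29.3, 33.3, 25.1 and 27.2 CPM in obese mice and 36.35, 28.6, 34.4, 27.2 and 40.7 CPM in formerly obese mice. All obese mice except replicate 3 lay below every control mouse, and formerly obese mice lay on both sides of the control range. The log2 fold change was -0.16 ± 0.10 (-0.38 to 0.05) in obese and 0.04 ± 0.10 (-0.17 to 0.26) in formerly obese mice against control mice, and Socs2 was not called.

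Over all 10 genes, 6 fitted differences were higher and 4 lower in obese against control mice. There, 0 genes were called by edgeR (1, Cish, by DESeq2) and the median log2 fold change was 0.03, beside 0.00 for all tested entries. In formerly obese against control mice 4 were higher and 6 lower, Cish was called and the median was -0.10. In formerly obese against obese mice 2 were higher and 8 lower, Socs1 was called and the median was -0.12. The counts of called genes were read as no result about the group, because the genes were proposed with these comparisons in view. Groups were fully apart for Cish in both comparisons with control mice and for none of the 10 genes in formerly obese against obese mice, beside 2.47%, 3.62% and 3.38% of all tested entries.

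**Figure D3:**
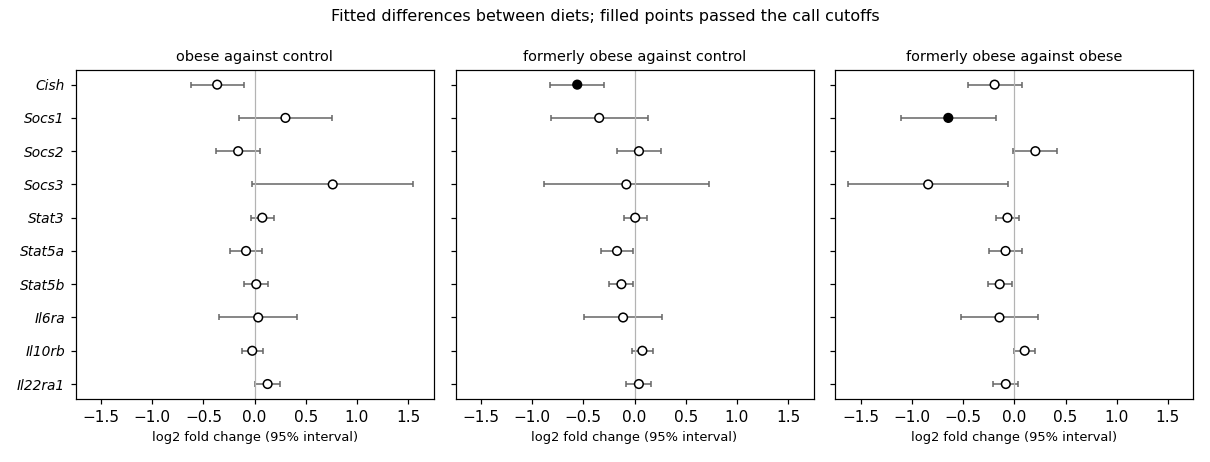
Fitted log2 fold change of each gene (x axis) with its 95% interval in the 3 comparisons, where filled points passed the cutoffs. Cish is filled in formerly obese against control mice (-0.56) and Socs1 in formerly obese against obese mice (-0.65), and the widest intervals are those of Socs3.

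Single mice stood apart in different genes of the 10. Each gene was standardised to its own mean and SD of log2 CPM over the 15 mice. Obese replicate 1 was 2.73 SDs above the mean for Socs3, 2.79 for Stat3 and 1.93 for Stat5a, yet 1.90 SDs below it for Il10rb (a value of -1.90). Formerly obese replicate 3 was at -2.88 for Cish and at -1.44 for Stat5b and Il6ra, with 0.69 for Socs2.

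**Figure D4:**
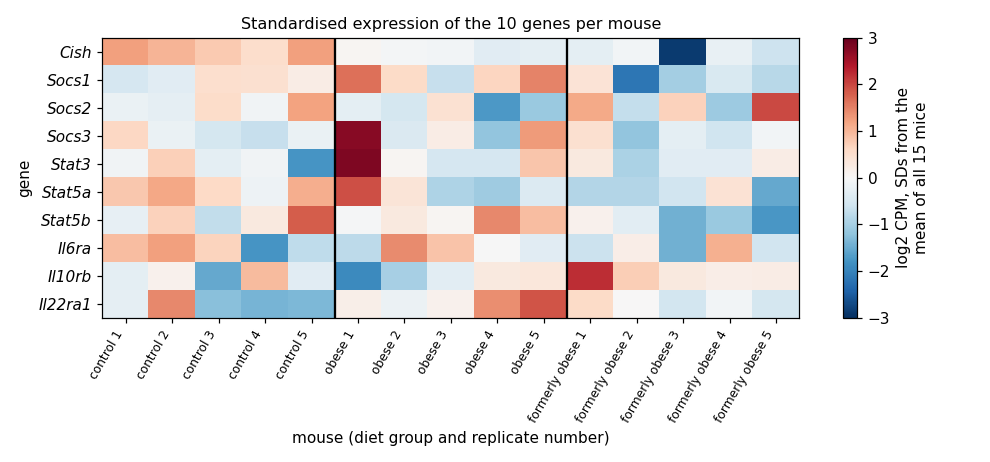
Standardised log2 CPM of the 10 genes (rows) in the 15 mice (columns, by diet), in SDs from each gene's mean over all mice. Cish is above its mean in all control mice, Socs3 and Stat3 peak in obese replicate 1 (2.73 and 2.79) and the lowest value is that of Cish in formerly obese replicate 3 (-2.88).

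The genes most like Cish over the 15 libraries, by the root mean square difference of standardised log2 CPM among 11027 genes with a mean of at least 50 counts, were Abo (0.38 SDs), Lrrc51 (0.51) and Stoml1 (0.51), beside a median of 1.35 over those genes. Abo, a glycosyltransferase gene, averaged 13.6 CPM in control, 11.3 CPM in obese and 9.93 CPM in formerly obese mice. In the same order Lrrc51 averaged 10.7, 9.28 and 8.74 CPM, and Stoml1 16.2, 15.8 and 14.7 CPM. Cish in formerly obese replicate 3 was at -2.88 SDs, and the weight of that mouse in the likeness was not tested. For Socs3 the nearest were Srfbp1 (0.59), Ppard (0.60), which encodes a nuclear receptor for fatty acids, and Tifa (0.61), beside a median of 1.37. Likeness was measured on the same libraries as the diets, and it was not tested.

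The rest of the pathway was read from 7 lists with 139 genes, none of them among the 10, of which 137 were in the table and 82 were tested. Of the 82, 3 rose and 2 fell in obese against control mice, 6 rose and 7 fell in formerly obese against control mice, and 3 rose and 3 fell in formerly obese against obese mice. Of all tested entries, 1.58%, 3.72% and 2.65% were called in the same 3 comparisons. The median log2 fold changes of the 82 genes were 0.05, 0.02 and -0.04. All calls came from receptors and STAT target genes, and their adjusted p-values are those of edgeR over all tested entries. The lists, like the 10 genes, were chosen with earlier results of these data known. The adjusted p-values therefore describe single genes and test no claim about the lists.

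Upstream of the receptors, only 5 of 39 ligand genes were expressed enough to be tested, namely Il7, Il15, Lif, Ctf1 and Thpo, and none was called in the main edgeR fit. In the 3 comparisons, 0, 0 and 2 had an unadjusted p under 0.05, and the share of all tested entries under it is not given. In formerly obese against obese mice Il15 was called by DESeq2 and by edgeR without a filter on low counts, with the compared groups alone and with some single mice left out. Il7 was called there with the replicate block and without obese replicate 3. Il15 was the highest, with means of 19.4 ± 2.51 (control), 16.8 ± 1.18 (obese) and 20.7 ± 3.03 CPM (formerly obese, SD, n = 5). The genes of IL-6, IL-10 and IL-22 themselves did not pass the filter.

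Of 24 other receptor genes tested, Lifr, the receptor subunit for leukemia inhibitory factor, was called in all 3 comparisons. Lifr measured 10.7, 9.95, 8.99, 9.29 and 11.4 CPM in control mice and 6.92, 5.93, 4.19, 5.55 and 5.41 CPM in obese mice, so that the groups were apart. In formerly obese mice it measured 6.35, 7.65, 7.70, 6.03 and 9.56 CPM, between the other groups with some overlap with both. Lifr fell by 0.85 on the log2 scale (SE 0.14, adjusted p = 0.022) in obese mice, and it passed the cutoffs in all 23 alternatives. It fell by 0.43 (SE 0.14, adjusted p = 0.105) in formerly obese against control mice, a call kept in 18 of 23 alternatives, and it was 0.41 higher (SE 0.14, adjusted p = 0.193) in formerly obese than in obese mice, a call kept in 9 of 23.

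Ghr, the growth hormone receptor, whose signal runs through JAK2 and STAT5, fell in formerly obese mice, from 31.4 ± 3.25 CPM in control mice to 24.0 ± 3.14 CPM (log2 fold change -0.39, SE 0.11, adjusted p = 0.0683), with 28.8 ± 4.36 CPM in obese mice. This call was kept in 22 of 23 alternatives. Il3ra, the alpha subunit of the IL-3 receptor, fell by 0.69 (SE 0.23, adjusted p = 0.134) in formerly obese against control mice at about 1 CPM, and only 4 of 22 alternatives kept the call. Il6st (gp130), the signalling chain that Il6ra and Lifr share, was not called, with 45.5 ± 4.34, 49.0 ± 2.68 and 46.6 ± 5.10 CPM in control, obese and formerly obese mice.

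Of the Janus kinase genes, Jak1 averaged 189, 186 and 194 CPM in control, obese and formerly obese mice, Jak2 122, 122 and 122 CPM, Tyk2 64.9, 70.1 and 65.1 CPM, and Jak3 12.3, 14.45 and 12.1 CPM. None of the 4 was called. In obese against control mice the log2 fold change was 0.01 for Jak2 (95% interval -0.07 to 0.08), -0.03 for Jak1 (-0.13 to 0.07), 0.11 for Tyk2 (0.00 to 0.22, with the lower bound just above 0) and 0.24 for Jak3 (-0.03 to 0.50).

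Among other STAT genes, Stat6, which IL-4 and IL-13 activate, had means of 139, 141 and 142 CPM in control, obese and formerly obese mice. Stat2, which carries interferon signals, averaged 45.7, 44.5 and 48.2 CPM, and the low Stat4 averaged 0.70, 0.99 and 1.19 CPM. None of these was called.

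None of the remaining SOCS genes was called. Socs4 averaged 21.5, 22.6 and 22.7 CPM in control, obese and formerly obese mice, Socs5 19.9, 20.2 and 18.2 CPM, Socs6 43.2, 43.0 and 44.0 CPM, and Socs7 32.5, 34.1 and 32.3 CPM. Of 13 other inhibitors (these 4, the PIAS proteins, phosphatases and the adaptor gene Sh2b3) and 6 tested partners of the SOCS box in ubiquitin ligases, 0 were called by edgeR or DESeq2 in any comparison. Together with the Janus kinases and other STAT genes these were 27 genes, of which 2, 2 and 1 had an unadjusted p under 0.05 in obese against control, formerly obese against control and formerly obese against obese mice. The share of all tested entries under that p is not given, so these counts were read as no result. The last was the phosphatase gene Ptpn1, with means of 45.3 CPM in formerly obese and 52.05 CPM in obese mice (log2 fold change -0.20, SE 0.05, adjusted p = 0.1). Its groups were apart, as were those of 3.38% of all tested entries, and only the fold cutoff kept it from a call. At a stricter adjusted p of 0.05 with no fold cutoff, Pias2, an inhibitor that binds STATs, passed in formerly obese against control mice, with means of 66.7 and 77.1 CPM, as did 2.18% of all tested entries.

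Of 26 STAT target genes tested, 3 rose and 1 fell in obese against control mice, beside 1.58% of all tested entries called either way. The count was read as no result about STAT targets, because their list was chosen with earlier results known. Those that rose encode enzymes of reactive oxygen and nitrogen production and a partner. Duox2, an epithelial oxidase that makes hydrogen peroxide, measured 52.4, 39.6, 50.04, 44.4 and 48.8 CPM in control mice and 88.2, 53.9, 86.8, 60.8 and 85.5 CPM in obese mice, and every obese mouse was above every control mouse. Its log2 fold change was 0.67 (SE 0.14, adjusted p = 0.0786), and it was also higher in formerly obese than in control mice, by 0.52 (SE 0.14, adjusted p = 0.0684). Both calls were kept in 22 of 23 alternatives.

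Duoxa2, which brings the oxidase to the cell surface, rose from 7.72 ± 0.78 to 12.3 ± 3.55 CPM in obese mice (log2 fold change 0.67, SE 0.18, adjusted p = 0.150, kept in 18 of 23 alternatives). Nos2, the inducible nitric oxide synthase, rose from 0.72 ± 0.39 to 1.68 ± 0.75 CPM in obese mice (1.22, SE 0.37, adjusted p = 0.222) and to 1.53 ± 0.56 CPM in formerly obese mice (1.082, SE 0.37, adjusted p = 0.142). Nos2 was at the low end of the tested entries, and 13 and 9 of 22 alternatives kept its calls. Obese replicate 5, the highest mouse for Nos2 (2.88 CPM), also had the highest sum of immune markers (67.9 CPM), whose part in the value was not tested.

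Ccnd2, the cyclin D2 gene, was the target that fell in obese mice. It measured 343, 342, 294, 355 and 319.8 CPM in control, 244, 229.8, 236, 218.5 and 221 CPM in obese and 271, 294.5, 283, 294 and 356.5 CPM in formerly obese mice. The obese mice were below all others. Ccnd2 fell by 0.52 on the log2 scale (SE 0.07, adjusted p = 0.00346) against control mice, and it was 0.38 higher (SE 0.07, adjusted p = 0.0297) in formerly obese than in obese mice, with both calls kept in all 23 alternatives.

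In formerly obese against control mice, 6 targets rose and 4 fell, beside 3.72% of all tested entries called either way, a count again read as no result about the list. Besides Duox2 and Nos2, those that rose were Saa1, an acute phase gene, and the antimicrobial lectin genes Reg3a, Reg3b and Reg3g. Reg3b measured 101, 19.8, 132, 135 and 102 CPM in control mice, 377, 17.2, 136, 108 and 441 CPM in obese mice and 282.5, 54.6, 1841, 142 and 579 CPM in formerly obese mice. The group means were thus carried by a few mice, with 1841 CPM in formerly obese replicate 3 alone. The colonocyte marker sums were also higher in formerly obese mice (median 11870 CPM) than in control mice (median 7104 CPM), and their part in the changes of these targets was not tested.

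The log2 fold changes in formerly obese against control mice were 2.57 for Reg3b (SE 0.83, adjusted p = 0.119), 2.40 for Reg3g (SE 0.75, adjusted p = 0.107) and 1.11 for Reg3a (SE 0.37). Without formerly obese replicate 3, Reg3b stood at 1.44 and Reg3g at 1.76, and neither was called. Over all alternatives, 15 of 23 kept the call of Reg3b, 17 of 23 that of Reg3g and 14 of 22 that of Reg3a. Reg3a stayed below 2 CPM in every mouse, and its groups were apart in formerly obese against obese mice (1.59, SE 0.39, adjusted p = 0.0797, kept in 20 of 22). Saa1 averaged 884 CPM in control and 1097 CPM in formerly obese mice (0.31, SE 0.09, adjusted p = 0.0958, kept in 16 of 23 alternatives). The Reg3 and Saa genes have close relatives from which their reads may not always be told apart, so their separate values are uncertain.

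The targets that fell in formerly obese mice were Cebpd, Junb and Fos, which encode transcription factors of the immediate response, and the kinase gene Pim3. Cebpd measured 8.91, 11.5, 8.12, 10.3 and 14.7 CPM in control, 13.96, 12.1, 11.9, 8.36 and 12.1 CPM in obese and 8.51, 6.08, 6.50, 6.19 and 6.45 CPM in formerly obese mice. The formerly obese mice except replicate 1 were below every other mouse, and replicate 1 overlapped with both other groups. Cebpd fell by 0.67 against control mice (SE 0.16, adjusted p = 0.038) and by 0.79 against obese mice (SE 0.16, adjusted p = 0.0513), calls kept in 23 and 22 of 23 alternatives.

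Junb fell by 0.47 (SE 0.12, adjusted p = 0.0583) against control and by 0.58 (SE 0.12, adjusted p = 0.0541) against obese mice, from means of 97.3 and 105 CPM to 70.25 CPM, and both calls were kept in 22 of 23 alternatives. Fos (455 to 358 CPM, log2 fold change -0.35, adjusted p = 0.114) and Pim3 (65.3 to 54.2 CPM, -0.27, adjusted p = 0.138) fell against control mice, calls kept in 17 and 13 of 23 alternatives. Bcl3, a cofactor of NF-kappaB, fell in formerly obese against obese mice, with means of 31.9 ± 6.37 and 44.4 ± 9.498 CPM (-0.48, SE 0.15, adjusted p = 0.147, kept in 15 of 23).

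**Figure D5:**
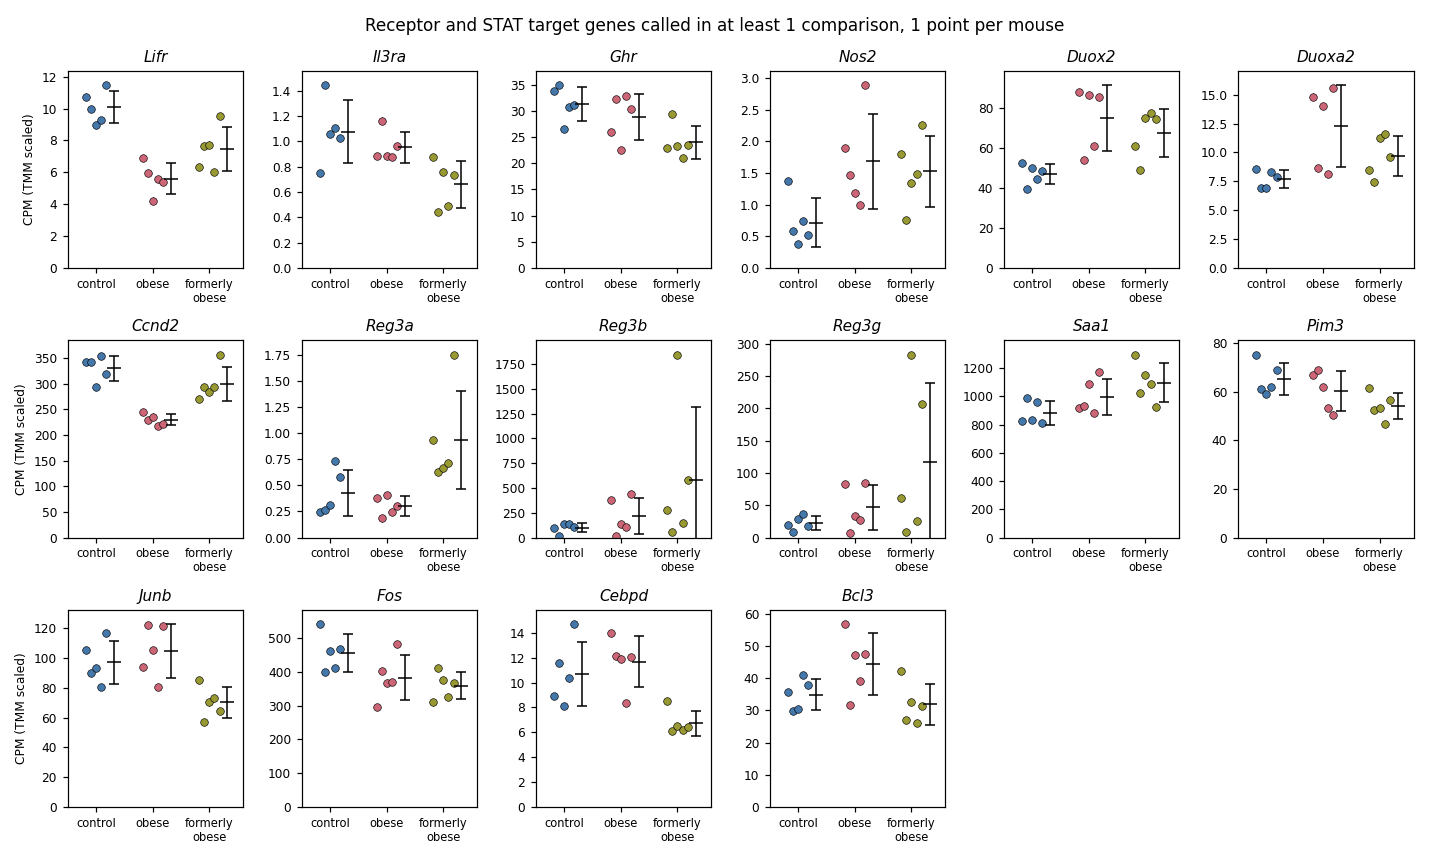
Level in CPM (y axis, from 0) of the receptor and STAT target genes called in at least 1 comparison, with 1 point per mouse and the mean and SD of 5 mice, bars being drawn down to 0 at most. Lifr and Ccnd2 have their lowest means in obese mice, Cebpd and Junb in formerly obese mice, and the Reg3b mean of formerly obese mice is carried by 1 mouse at 1841 CPM.

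DNA methylation gave a readout that the choice of the 10 genes did not use. The deposited list held 8199 differentially methylated regions (DMRs) between obese and control mice, 4123 with more (hyper) and 4076 with less (hypo) methylation in obese mice, and no value per mouse. Stat3, Socs3 and Il6ra, 3 of the 10 genes, had a DMR within 50 kb of their start, beside 34.9% of 12956 tested entries with a usable position. Within 100 kb there were 8, beside 56.1%, and Stat3, Stat5a and Stat5b counted through the same region. The median distance from a gene start to the nearest DMR was 86.0 kb for the 10 genes and 84.0 kb for all tested entries.

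These 3 regions are shown because they were the nearest to any of the 10 genes, with the CG dinucleotides that can be methylated in capitals, on the plus strand of GRCm38.p6.
Stat3 region, hypo, chr11:100942367-100942381: CGctgccaaagttCG
Socs3 region, hypo, chr11:117955044-117955055: CGagttgggtCG
Il6ra region, hyper, chr3:89896474-89896508: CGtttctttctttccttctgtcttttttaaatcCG

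Each of them was short and held 2 CG dinucleotides. The first lay 2.9 kb upstream of the Stat3 start, outside any gene of the count table, and it was also the nearest DMR to Stat5a (83.0 kb) and Stat5b (91.8 kb) in the cluster of STAT genes on chromosome 11. The second lay 14.3 kb downstream of the Socs3 start, beyond the end of the gene. The third lay inside Il6ra, 16.7 kb downstream of its start and outside RefSeq exons, hence in an intron. None of the 3 genes was called in obese against control mice.

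Cish (chromosome 9, positions 107296689 to 107301961, plus strand) had its nearest DMR 204.4 kb away, the farthest of the 10 genes, and that region was hyper. Il10rb (50.8 kb), Socs1 (88.9 kb), Socs2 (94983 bases) and Il22ra1 (130.4 kb) lay in between. The amplicon data were not used for these genes, because the nearest CpG measured there was 1.14 Mb from any of them.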

How the data were processed

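RNA-seq, amplicon bisulfite sequencing and WGBS were run on colonic epithelium of 15 mice per assay. For RNA-seq the authors prepared stranded mRNA libraries, aligned the reads against mm10 using TopHat (TopHat2 2.0.4 in the submitters' processing notes) and deposited unnormalized HTSeq-count counts for each gene. The strand mode and annotation release were not given in the sources used here, and none of the 10 genes overlapped another gene of the table. The authors also deposited the WGBS regions as positions with a direction, from Bismark alignments and the Rao-Scott likelihood ratio test, and DESeq2 tables of their own comparisons, which were not used. Groups came from the sample labels.

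Counts were fitted in R 4.3.3 with edgeR 4.0.16 (filterByExpr, TMM, quasi-likelihood test, group as the only term, 15 libraries). Standard errors and intervals come from that fit. On simulated counts of 12890 genes for obese against control mice, 194 of 200 changed genes (97%) were recovered with 38 false calls. That share holds only for the sizes of change and the count levels that were simulated. It is not the power to call the small differences or the low counts of the genes described here, which was not tested. Alternatives were DESeq2 1.42.0, upper-quartile scaling, other filters, the compared groups alone, a replicate block, removal of each library's trend with GC content (known for 98.6% of entries), a stricter cutoff and leaving out each mouse. No label said whether replicate numbers pair the mice, and the main fit did not pair them. Exon lengths came from curated RefSeq transcripts of GRCm38.p6.

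The 10 genes, the gene lists and the tests were chosen with earlier results of these data known. Named genes were the 10, each pathway gene called in any comparison, each Janus kinase, STAT, Socs4 to Socs7 and Il6st, and the 3 genes most like Cish and like Socs3. Pias2, Ptpn1, Il11ra1 and the 5 tested ligands were added after their values were seen. An item of these lists is not reported here. Replicates were separate mice. A comparison of protein sequences was planned and not run.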

Additional observations from a re-analysis of the deposited data

Results flagged for a closer look

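In 78 groups of 5 mice (10 genes of cytokine signalling and 16 called pathway genes, 3 diets), 5 held a mouse whose gap to its nearest neighbour was over 0.71 of the group's range, Dixon's 95% critical value. Chance puts about 1 in 20 such groups past it. All 5 were in formerly obese mice. Cish in replicate 3 was at 10.73 CPM, below 17.98 to 20.43 CPM in the other 4 mice. Il10rb in replicate 1 was at 132.2 CPM, above 118.1 to 121.7 CPM. Cebpd in replicate 1 was at 8.505 CPM, above 6.079 to 6.498 CPM. Ccnd2 in replicate 5 was at 356.5 CPM, above 270.8 to 294.5 CPM, and Reg3a in the same mouse was at 1.753 CPM, above 0.6267 to 0.932 CPM.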

How the results depend on the processing

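Of 1785 values of single genes under alternatives, 1632 kept their direction where called and their side of the cutoffs, 144 no longer passed, 9 newly passed and 0 called values changed sign. In obese against control mice, 1 of the 10 genes (Cish) was called with DESeq2, with the compared groups alone and with GC trends removed, against 0. In formerly obese against obese mice, 0 were called with DESeq2, no filter on low counts, the compared groups alone, the replicate block, GC trends removed and an adjusted p under 0.05, against 1 (Socs1). With an adjusted p under 0.05 and no fold cutoff, all tested entries gave 16, 282 and 25 calls in obese against control, formerly obese against control and formerly obese against obese mice, and the pathway genes 2, 2 and 1. Leaving out each mouse gave 40 to 331, 362 to 660 and 167 to 400 calls of all entries, 3 to 7, 5 to 13 and 4 to 7 of pathway genes, 0 to 1, 1 to 1 and 0 to 1 of the 10 genes, and 1 to 3, 1 to 3 and 0 to 1 of the 10 genes with groups apart. The share of all entries with groups apart is not given for these fits, so the last ranges were read as no result about the group. Without formerly obese replicate 3 the pathway calls in formerly obese against control mice were 7, against 13. Widening the distance to a DMR from 50 to 100 kb took the genes near one from 3 to 8. The causes of these changes were not tested. The order of levels per length in control mice was the same for all 10 genes with upper-quartile scaling.

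Same-numbered mice of different groups correlated by -0.231 to 0.333 in their deviations, over 0.1 in 5 of 15 pairs, and 5 pairs correlated best with their own number. The replicate block gave 252, 537 and 346 calls of all entries, against 205, 482 and 343. Depth limits Socs1, with 12 to 37 counts per library, and Il6ra.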
